A study of Mus musculus with 8 samples.

Results

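MiR-149 is a microRNA whose hairpin lies inside the gene of glypican-1 (Gpc1), and both of its arms, miR-149-5p and miR-149-3p, were followed in the kidneys of diabetic Akita mice and of control mice. The members were selected by name, as the spots that the array annotation assigns to these 2 of 1881 mouse miRNAs. They were proposed because miR-149-5p was higher in Akita kidneys in earlier results from these same arrays, so the difference between the groups is given here as a description, with no p-value. Kidney samples of male mice, 4 labelled C57BL/6-Ins2Akita/J and 4 labelled C57BL/6J, were measured with 1 Agilent array per sample. All 8 samples carry the age 36 with no unit. The Akita allele is a dominant Ins2 mutation that makes proinsulin misfold in pancreatic beta cells, and the mice become diabetic. The titles call the controls Mock, and no treatment is named in the labels. An miRNA array carries no Ins2 probe, so the genotype could not be checked from these values.

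A microRNA hairpin is cut into a pair of arms, and an arm loaded into Argonaute pairs with messenger RNAs mainly through its seed, bases 2 to 8. MiR-149 is processed from an intron of Gpc1, which encodes a heparan sulfate proteoglycan of the cell surface. The 5p arm has been reported to repress mRNAs of inflammatory signalling, among them those of MyD88 and IL-6, and the 3p arm to be induced by p53 in melanoma cells.

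The mature sequences are shown because they decide what the probes can read, with the seed in capitals. They are the RefSeq entries for GRCm38.p6, in which both arms were found.
mmu-miR-149-5p: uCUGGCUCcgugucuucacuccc
mmu-miR-149-3p: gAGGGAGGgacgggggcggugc
The hairpin, with both mature arms in capitals, spans chr1:92850378-92850443 on the plus strand.
mmu-mir-149 hairpin: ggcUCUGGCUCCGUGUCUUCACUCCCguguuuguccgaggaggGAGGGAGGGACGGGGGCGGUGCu

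In the same RefSeq build, Gpc1 spans chr1:92831645-92860211 and was the only other gene that overlapped the hairpin, which begins 18733 bases from the low-coordinate end of Gpc1. The 5p arm lies at chr1:92850381-92850403 and the 3p arm at chr1:92850421-92850442. The arms differ in composition. Of the 23 bases of the 5p arm 4 are G, and of the 22 bases of the 3p arm 15 are G, with a G and C content of 60.9% and 81.8%.

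Each arm was read by 2 probes of 15 spots each, and the 2 probes of an arm are nested, so they are not independent readings. The probe sequences of the scanner files, written 5′ to 3′ as DNA, are shown because they differ in length between the arms.
miR-149-5p probe of 18 bases: gggagtgaagacacggag
miR-149-5p probe of 17 bases: gggagtgaagacacgga
miR-149-3p probe of 11 bases: gcaccgccccc
miR-149-3p probe of 10 bases: gcaccgcccc
The 5p probes are complementary to bases 6 to 23 and 7 to 23 of the arm, and the 3p probes to bases 12 to 22 and 13 to 22. No probe covers the whole seed of its arm. The array annotation places the 18-base probe at chr1:94746964-94746980 and the 11-base probe at chr1:94747010-94747019, both in the older mm9 build, over spans 1 base shorter than the probes. The complement of each probe was found in 1 of the 1679 mature miRNAs in the RefSeq table, its own target, and in 1 of the 1005 hairpins.

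MiR-149-5p was well above background in all 8 kidneys, and it was a dim miRNA. All 118 spots of its 18-base probe that were free of outlier flags were well above background. The 17-base probe was nearer the limit, with 32 of 58 spots above background in the control kidneys (55.2%) and 52 of 60 in the Akita kidneys (86.7%). The share was lowest in control replicate 4, with 5 of 15 spots, and highest in Akita replicates 1 and 2, with 15 of 15. The spots of a probe varied within an array by 8.64% to 15.7% (coefficient of variation) for the 18-base probe and by 9.28% to 20.5% for the 17-base probe.

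MiR-149-3p, the G-rich arm, was not well above background in any kidney. None of the 119 usable spots of its 10-base probe and none of the 116 of its 11-base probe passed, in either group. The mean signal per array ran from -1.66 to 2.86 for the 10-base probe and from 2.37 to 6.51 for the 11-base probe. Negative control spots, which match no mouse RNA, had mean signals from -0.12 to 2.94 with an SD of 3.28 to 3.75 within an array. The highest 11-base signals were 6.45 in control replicate 3 and 6.51 in Akita replicate 3, and the lowest were 2.37 in control replicate 2 and 2.63 in Akita replicate 1, so the groups overlapped. The mean of the 11-base probe exceeded that of the negative control spots on all 8 arrays, by 1.00 to 5.23 units in the controls and by 0.964 to 5.06 in the Akita kidneys, with a standard error over spots of 0.580 to 1.24. The mean of the 10-base probe did so on 4 of the 8 arrays. These excesses also overlapped between the groups, and no fold is read from the spots of an arm with none well above background. Among all array probes of 11 bases or fewer, 15 of 145 were well above background on all 8 arrays (10.3%), beside 436 of 4270 longer probes (10.2%). Of the 723 miRNA genes with both arms on the array, 87 had, as miR-149 does, a 5p arm above background on all 8 arrays and a 3p arm above it on none, 51 had the opposite pattern, and 20 had both arms on all 8.

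**Figure D1:**
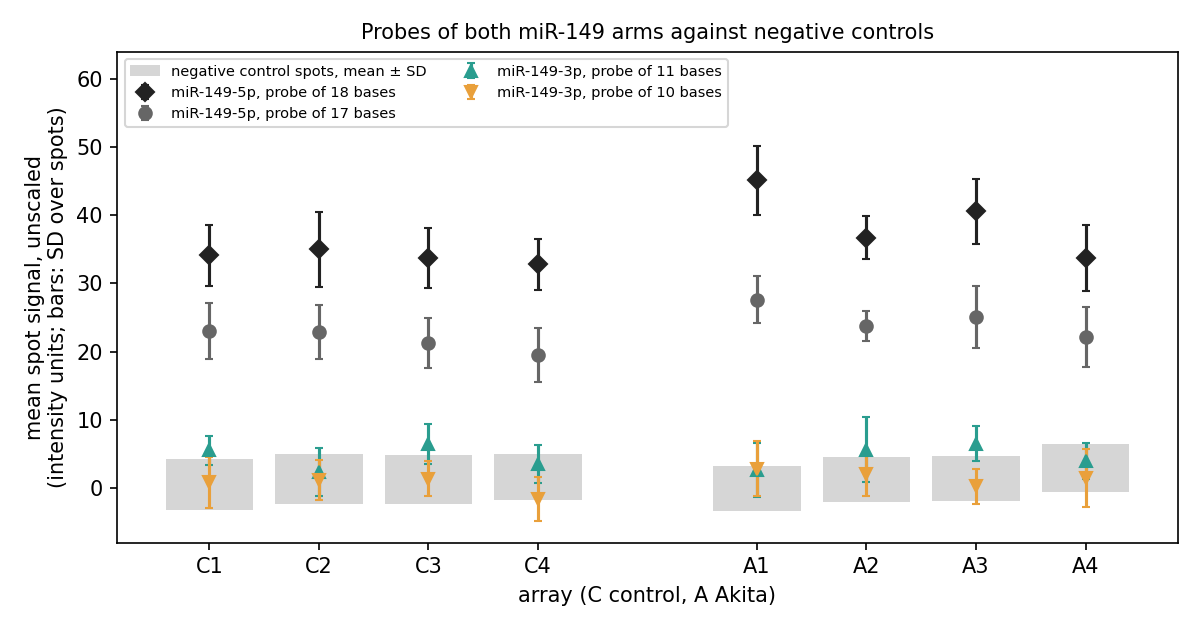
Mean unscaled spot signal (intensity units) of the 4 miR-149 probes on each array, with bars for the SD over the spots of an array; grey boxes give the mean ± SD of the negative control spots. Both 5p probes stand above the boxes on every array, while the 3p probes stay at or just above them, between -1.66 and 6.51.

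Before any scaling between arrays, the miR-149-5p signal of the groups overlapped. The sum of its probes was 57.2, 57.9, 55.0 and 52.3 intensity units in control replicates 1 to 4, with a standard error over spots of 1.42 to 1.79. It was 72.7, 60.4, 65.6 and 56.0 in Akita replicates 1 to 4, with a standard error over spots of 0.997 to 1.70. Akita replicate 4 lay below control replicates 1 and 2, and the other 3 Akita kidneys lay above all controls. By probe, the 18-base signal was 34.1, 35.0, 33.7 and 32.8 in the controls and 45.1, 36.7, 40.5 and 33.8 in the Akita kidneys. The 17-base signal was 23.0, 22.8, 21.3 and 19.5 in the controls and 27.6, 23.7, 25.1 and 22.2 in the Akita kidneys. Both probes ordered the Akita kidneys alike, with replicate 1 highest and replicate 4 lowest. The group means of the summed signal were 55.6 ± 2.50 and 63.7 ± 7.21 (SD, n = 4 each). The log2 difference, Akita minus control, was 0.19 with a 95% interval from -0.01 to 0.39 in limma's fit across all tested miRNAs.

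A common scale for the arrays was then taken from their overall brightness, which was lower in Akita. Over the probes above background on every array, the 75th percentile averaged 506.7 ± 10.3 in control and 420.8 ± 35.2 in Akita (SD, n = 4 each), and it was lowest in Akita replicate 4 at 368.8. Its exact two-sided permutation test gave p = 0.0286, the smallest that 4 against 4 can give, and p = 0.0857 adjusted over the 3 array measures compared. The labelling spike-ins, synthetic RNAs added before labelling, had a mean of 1792 in control and 1754 in Akita (exact permutation p = 0.457, adjusted p = 0.457). The background subtracted under the miR-149-5p spots was 49.9 ± 1.01 in control and 48.5 ± 1.13 in Akita (exact permutation p = 0.171, adjusted p = 0.257). On the slide that held all 8 arrays, row 1 held the controls and row 2 the Akita samples, and slide row and genotype cannot be told apart.

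With each array divided by that percentile, miR-149-5p, which was chosen for this difference, separated the groups. The scaled sum was 53.5, 53.3, 50.2 and 46.6 in control replicates 1 to 4 and 75.6, 64.4, 70.3 and 70.4 in Akita replicates 1 to 4. The lowest Akita kidney, replicate 2, stood above the highest control kidney, replicate 1. Other tested miRNAs, such as miR-155-5p and miR-142a-3p, did not overlap between the groups either, and the share of such miRNAs was not counted. On the log2 scale the means of miR-149-5p were 5.67 ± 0.09 in control and 6.13 ± 0.09 in Akita (SD, n = 4 each). The difference was 0.46 ± 0.08 (SE), with a 95% interval from 0.29 to 0.64, or a 1.38-fold higher scaled signal in Akita. These levels were 2.14 and 2.95 times the floor below which signals carry no order. Whether every sample stems from a separate mouse is not stated in the labels, so intervals and p-values measure only the spread between these samples.

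**Figure D2:**
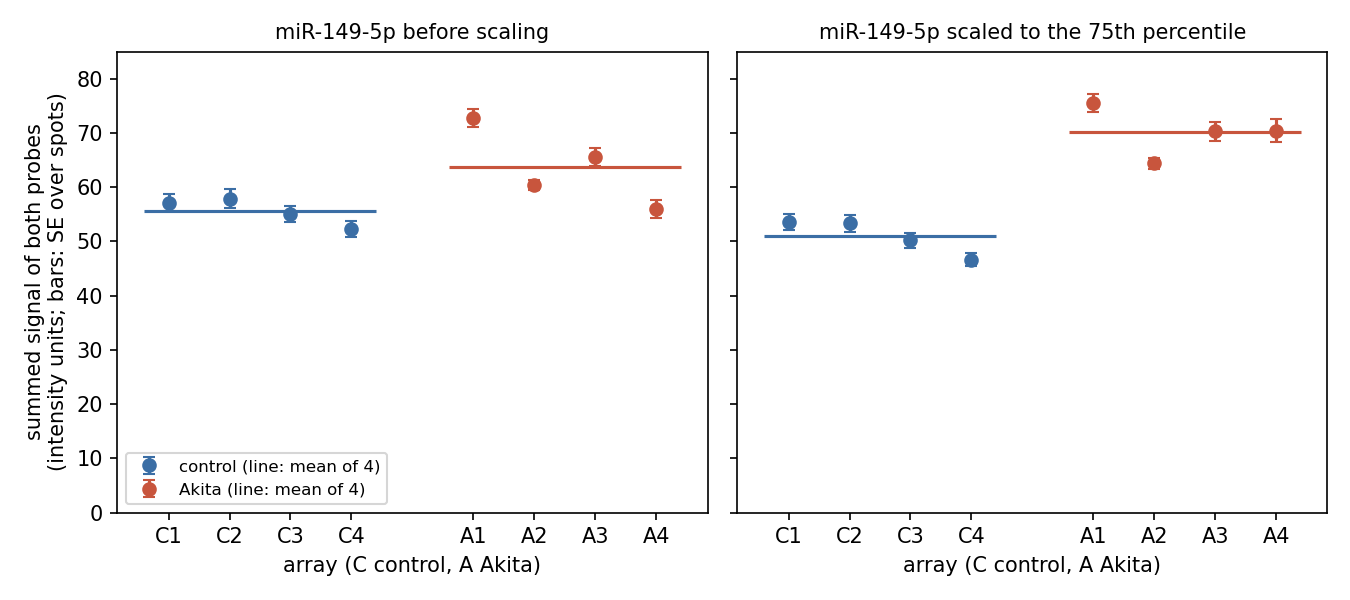
Summed signal of both miR-149-5p probes on each array, unscaled on the left and scaled on the right (intensity units, axis from 0), with bars for the standard error over spots and lines for group means. Akita replicate 4 sits at 56.0 among the controls before scaling and at 70.4, above all of them, after it.

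Of the 2 arms, only miR-149-5p entered the fit across 285 miRNAs, in which 42 (14.7%) passed limma's adjusted threshold of 0.05. MiR-149-5p was among them, but as it was chosen from this same difference, nothing is read from that. Of the 42, 24 were higher in Akita (8.42%) and 18 lower (6.32%). The median log2 difference over all tested miRNAs was 0.06. Relative to that median, miR-149-5p was higher by 0.40 on the log2 scale, and a scaling that divides each array by a single factor leaves this distance as it is. The distance was 0.39 with cyclic loess and 0.42 with quantile normalization, and 0.16 with another background correction (normexp), under which the difference itself was 0.29.

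The size of the difference thus depended on the reference, and its sign did not turn under any of the 28 alternatives computed, 1 of which gave 0. Some of them could not move the difference. The changes of filter, variance model and replicate block and the floor 4 times lower left it at 0.46. With the spike-ins as the reference the difference was 0.22 (95% interval from 0.03 to 0.41), and with no scaling 0.19. The percentile over all probes gave 0.55. With each of the 8 arrays left out in turn, the difference ran from 0.42 to 0.50. Read from the 18-base probe alone the difference was 0.47, and from the 17-base probe alone 0.44. The 17-base probe had only 7 of 15 spots well above background in control replicate 3 and 5 of 15 in control replicate 4.

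**Figure D3:**
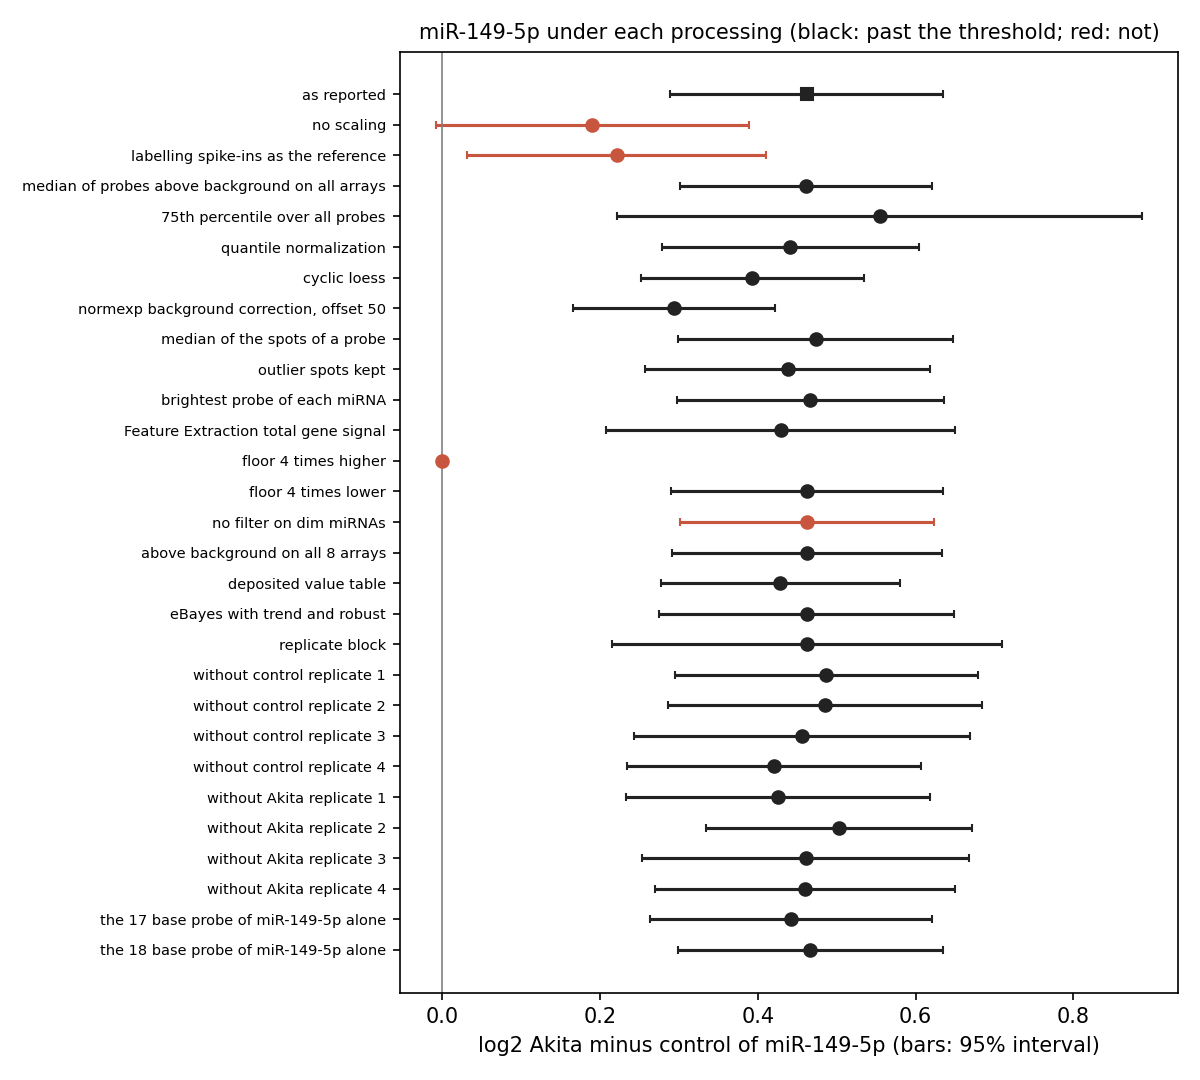
Log2 difference of miR-149-5p, Akita minus control, under the reported processing (square) and each alternative (circles), with 95% intervals; black marks fits that passed the threshold and red those that did not. Values without scaling (0.19) and with the spike-ins (0.22) lie lowest, apart from the raised floor, which sets all 8 arrays to the same value and gives 0.

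In the authors' deposited table, which gives a linear ratio per miRNA and array, miR-149-5p was 0.897, 0.907, 0.881 and 0.799 in control replicates 1 to 4. In Akita replicates 1 to 4 of the authors' deposited table it was 1.24, 1.10, 1.23 and 1.12, so the groups did not overlap, and the log2 difference was 0.43. The values of the 3p arm did not overlap between the groups either in the authors' deposited table. It was listed at 0.951, 0.950, 0.970 and 0.70 in the controls and at 1.03, 1.11, 1.13 and 1.22 in the Akita kidneys, a log2 difference of 0.34.

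These 3p values carry no signal of their own. They equalled those of the Blank row of the authors' deposited table in all 8 columns, as did 1448 of its 1902 rows in all, the Blank row included. In the scanner files the total signal of miR-149-3p is the same placeholder, 0.1, on each array. Divided by the Blank row, the miR-149-5p ratio of the authors' deposited table was 0.943, 0.955, 0.909 and 1.14 in the controls and 1.20, 0.997, 1.08 and 0.924 in the Akita kidneys. These quotients were proportional to the total signal of miR-149-5p without scaling. Dividing by the Blank row thus took out the factor per array and corrected for no background. The quotients overlapped between the groups, with a log2 difference of 0.09, beside 0.19 for the summed spots without scaling. Leaving out control replicate 4, the highest control here and the array whose total signals stood apart by their multiplier of 0.281, raised this difference from the authors' deposited table to 0.16. With each other array left out it ran from 0.02 (without Akita replicate 1) to 0.15 (without Akita replicate 4).

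Control replicate 4 stood apart in the total signal that Feature Extraction, the scanner software, computes per miRNA. Its total signal of miR-149-5p was 0.281 times the summed mean of its spots, and 0.212 times on the other 7 arrays. The same ratios were the medians over the 257 miRNAs above background on all 8 arrays. The summed spot signal of miR-149-5p, which does not use this multiplier, was lowest among the controls in control replicate 4 (52.3). With the multiplier its total signal was the highest of them (14.7, beside 11.7 to 12.3 in the other 3). When the total signal was scaled by its own percentile per array, the log2 difference was 0.43 (95% interval from 0.21 to 0.65).

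**Figure D4:**
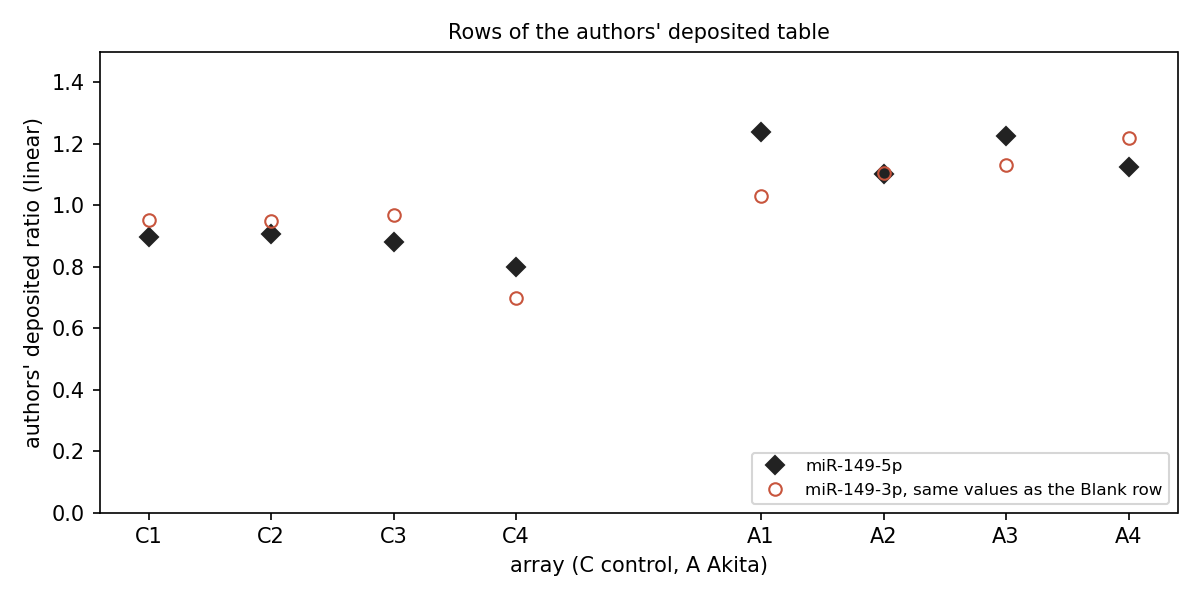
Linear ratio of miR-149-5p (diamonds) and of miR-149-3p, identical to the Blank row (open circles), in the authors' deposited table for each array, with the axis starting at 0. Both rows are below 1 in the 4 controls and above 1 in the 4 Akita kidneys, although no spot of the 3p arm was well above background.

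Other miRNAs that could be grouped with miR-149 by sequence or host gene were not above background. No other mouse miRNA of the RefSeq table shares the seed of the 5p arm. Those of miR-7016-5p, miR-1943-5p and miR-6967-5p equal the seed of the 3p arm, and all 3 were above background on none of the 8 arrays. Of the 6 glypican genes, Gpc3 holds 2 further miRNA genes, Mir6384 and Mir717, whose miRNAs miR-6384 and miR-717 were also above background on no array.

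As the 3p arm has been linked to p53, a list of 12 miRNAs reported to be induced or processed under p53 was set beside it. Of these, 9 were tested, and 2 rose while none fell, beside the 8.42% of all tested miRNAs that were higher. They were miR-34a-5p, a direct p53 target, (1.31 ± 0.09 log2 units, SE; limma's adjusted p = 5.4e-05), and miR-34b-5p, of the same family (0.35 ± 0.06; limma's adjusted p = 0.0067). MiR-34b-5p was not called without scaling (0.07; limma's adjusted p = 0.44), with the spike-ins (0.11), with the percentile over all probes (0.44), with the raised floor or with the replicate block (limma's adjusted p = 0.084). The lowest value was that of miR-15a-5p, -0.28 with an adjusted p of 0.059 in limma's fit, and it was called lower under 8 of the alternatives, among them quantile normalization (-0.33) and cyclic loess (-0.29). The median log2 difference of the 9 was -0.01, beside 0.06 over all tested miRNAs. Without scaling 1 of the 9 was higher and 7 were lower, beside 5 higher and 104 lower of all 285 tested miRNAs. The list was chosen with earlier results of these data known, so its counts and p-values are given as a description.

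The 5 miRNAs whose profiles over the 8 arrays lay nearest to that of miR-149-5p were all higher in Akita. Likeness was the root mean square difference of log2 profiles, each centred on its own mean, over 284 other tested miRNAs, among which its median was 0.246. The nearest were miR-6412 at 0.0896, the p53-list member miR-34b-5p at 0.0917, miR-222-3p, which is known from vascular smooth muscle and endothelium, at 0.108, miR-702-3p at 0.115 and let-7b-3p, a passenger strand, at 0.117. Their own log2 differences were 0.48, 0.35, 0.28, 0.35 and 0.31, in the same order. A profile near that of miR-149-5p has to carry a similar step between the groups. The shared direction thus follows from the selection, and it says nothing beside the 8.42% of all tested miRNAs that were higher. The profiles also share the arrays and their scaling, so this nearness is a description.

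**Figure D5:**
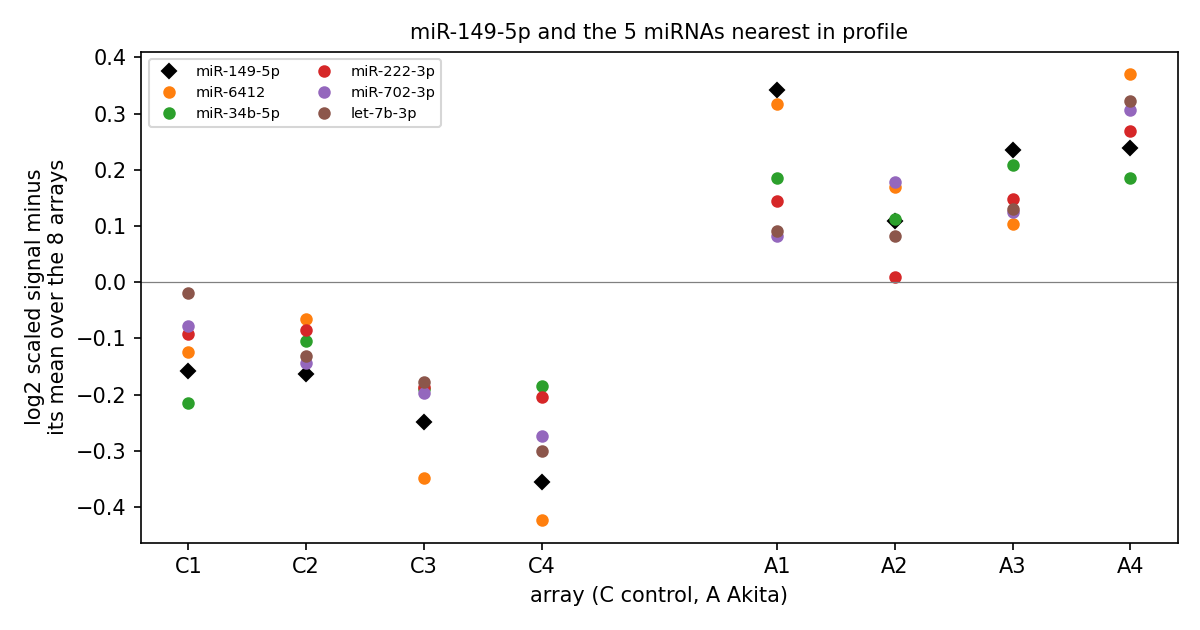
Log2 scaled signal of miR-149-5p (diamonds) and of its 5 nearest miRNAs (circles) on each array, minus each miRNA's mean over the 8 arrays. All 6 lie below 0 on the control arrays and above 0 on the Akita arrays, a step that nearness to miR-149-5p selects for. MiR-149-5p ranges from -0.36 in control replicate 4 to 0.34 in Akita replicate 1.

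Markers of the tissue were in place. All 4 listed tubule miRNAs, miR-192-5p and miR-194-5p among them, were above background on all 8 arrays, as were both of the endothelial and both of the smooth muscle list, and none of these 8 was called. Without scaling all 4 tubule and both smooth muscle miRNAs were called lower, beside 104 lower and 5 higher of all 285 tested miRNAs. MiR-375-3p of pancreatic islets was above background on no array. Of the brain list miR-124-3p was above it on none and miR-9-5p on all 8, and of the striated muscle list miR-1a-3p was above it on 3 control and 3 Akita arrays and the other 2 miRNAs on none. MiR-122-5p of liver was above it on 3 control and 2 Akita arrays. Of the 3 erythrocyte miRNAs only miR-451a was tested, with a log2 signal of 8.10 ± 1.69 in control and 9.34 ± 0.18 in Akita (SD, n = 4 each). The controls spread from 6.45 to 10.24 and enclosed the Akita values of 9.19 to 9.60. Its difference of 1.24 had a 95% interval from -0.32 to 2.80, and it was called higher without control replicate 3. Of the 6 leukocyte miRNAs, 5 fell in Akita, beside 6.32% of all tested miRNAs, with miR-155-5p at -0.61 and miR-142a-3p at -0.59, and their mean log2 signal ran from 6.93 to 7.13 in control and from 6.41 to 6.64 in Akita. Of the 6, 1 was called lower with normexp, none with the percentile over all probes, 1 with no filter and 2 with the floor 4 times higher. Over all miRNAs in the fit, these settings called 8, 4, 2 and 5 lower, in the same order. Without scaling and with the spike-ins all 6 were called lower, beside 104 and 107 over all miRNAs. The part of blood or leukocytes in the miR-149-5p difference was not tested. In whole kidney, a change in the number of cells that make a miRNA and a change in its amount per cell cannot be told apart.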

How the data were processed

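MicroRNA of 8 mouse kidneys (4 Akita, 4 control, grouped by sample title) was measured on one-colour Agilent arrays, from 100 ng of labelled RNA per the labels' protocols. The deposited scanner files hold linear spot intensity; per the file headers, Feature Extraction 12.0.3.1 subtracted a fitted spatial background and did not normalize between arrays. The authors' deposited table holds linear ratios, centred near 1. The sources used here do not give the derivation of its factor per array, so it served as an alternative.

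Control spots and outlier spots (2.03% to 3.02% of spots per array) were left out and no spot was saturated. For each probe the mean processed signal of its spots was taken and divided by the array's 75th percentile over the 451 of 4415 probes well above background (at least 0.5 of spots) on all 8 arrays. Probes of a miRNA were summed, sums under 23.8 were raised to that floor, and log2 was taken. A miRNA was tested when a whole group of 4 arrays had it above background, which 285 met. Tests used limma 3.58.1 under R 4.3.3 (its moderated two-sided test, Benjamini-Hochberg over all 285, threshold 0.05), checked on simulated data. The number of arrays limits the precision. Exact two-sided permutation tests compared measures per array.

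The members and lists were chosen with earlier results of these data known. Named miRNAs are both arms, those sharing a seed or a glypican host, the p53 list, the 5 nearest profiles and up to 2 markers per tissue list. The glypican rule asked for the same strand; the tables used here give no strand for Gpc1, so position alone was used. Alternatives covered scaling, background, spot and probe summary, floor, filter, variance model, replicate block and leaving out each array; single probes, and the deposited ratio without each array, were added after seeing the data.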

Additional observations from a re-analysis of the deposited data

Results flagged for a closer look

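Among 28 groups of 4 values examined (miR-149-5p, the tested p53-list members and the 5 nearest profiles, in each genotype), 2 held a value far from the other 3, where chance flags about 1 in 20. Neither concerned miR-149-5p. Control replicate 2 had the highest log2 signal of miR-143-3p in its group, 9.95 beside 9.68 in the next control. Control replicate 1 had the lowest log2 signal of miR-192-5p, 11.89 beside 12.12 in the next control.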

How the results depend on the processing

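The difference of miR-149-5p was above 0 in 27 of 28 alternatives and it was called in 24, which describes a miRNA chosen for this difference and supports nothing. It was not called without scaling (0.19), with the spike-ins (0.22), with the floor 4 times higher (0, all arrays at the floor) and with no filter (0.46, over 1881 miRNAs). MiR-149-3p enters a fit only with no filter, where all its values are at the floor and the difference is 0. Against 42 called miRNAs there were 109 without scaling, 114 with the spike-ins, 14 with the percentile over all probes, 70 with cyclic loess, 89 with normexp, 21 with total gene signal, 9 with the higher floor, 6 with no filter and from 20 (without Akita replicate 1) to 40 (without control replicate 1) without 1 array. It was 21 without Akita replicate 4, 22 without Akita replicate 3, 23 without control replicate 3 and 27 without control replicate 2. Against 2 called p53-list members there were 8, 7, 1 and 4 under the first 4 of these and 1 with the higher floor. MiR-107-3p and miR-143-3p, at 0.03 and 0.00 in the reported fit, were called lower without scaling (-0.24 and -0.27), as was miR-107-3p with the spike-ins (-0.21). Also called lower under these settings were miR-192-5p (-0.28 and -0.25), miR-194-5p (-0.36 and -0.33), miR-145a-5p (-0.30 and -0.27), miR-16-5p (-0.43 and -0.40) and miR-15a-5p (-0.55 and -0.52). MiR-16-5p was called lower with cyclic loess too (-0.18). MiR-15a-5p was so with quantile, cyclic loess, normexp, outlier spots kept, the authors' deposited table and robust eBayes. The causes of these shifts were not tested.

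No pairing by replicate number was seen in the values, which cannot settle whether the samples were paired. Deviations of same-numbered arrays correlated at 0.10, -0.30, 0.34 and -0.35 over 285 miRNAs, and no array correlated best with its own number. Same-numbered arrays shared a slide column, so the replicate block is also a block by slide column. With the replicate block the miR-149-5p difference was 0.46 (95% interval from 0.21 to 0.71), with 25 miRNAs called in all and 1 on the p53 list.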
